A study of Mus musculus with 2 samples.

Results

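The VEGF and angiopoietin axis was followed in reporter-labelled cells of adult mouse skeletal muscle as 9 genes: the ligand genes Vegfa, Vegfb, Vegfc, Pgf, Angpt1 and Angpt2 and the receptor genes Flt1, Kdr and Tek. They were taken by symbol from the 28001 features that both count matrices list, and each symbol matched 1 feature. Their levels were read in pericytes, progenitor-like mural cells, smooth muscle cells, fibroblasts and fibroblast subsets and in the few endothelial cells, each set apart by marker genes that hold none of the 9.

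Both single-cell RNA-seq libraries came from Hic1CreERT2/CreERT2;Rosa26LSLtdTomato/tdTomato mice on C57BL/6J, in which tamoxifen (TAM) switches on tdTomato for good in cells that then express Hic1, and in all of their progeny. In E10-P56, dams received 7.5 mg TAM at embryonic day 10 and muscle was collected at postnatal day 56. Per the methods, dams of young traced to adulthood also received progesterone with the TAM. Their young were delivered by caesarean section and fostered with a CD1 litter. In the adult pulse, animals of 8 weeks received 2.5 mg on each of 5 days; the labels give postnatal day 56 for this collection as well, while the study's text gives a later day. The methods describe hindlimb tibialis anterior muscles pooled for a capture and sorted for tdTomato, with CD31+ and CD45+ cells gated out, so that endothelium and the unlabelled cells of the muscle were removed by design. Both arms are homozygous for the CreERT2 allele of Hic1, with no group without it, and cells that began to express Hic1 after the TAM pulse carry no label. There was 1 library per labelling time, so no difference below has a test or a spread between animals. Labelling time, TAM dosing, progesterone, delivery and fostering, library and Cell Ranger version cannot be told apart.

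VEGF-A, VEGF-B and PlGF (the product of Pgf) bind VEGFR1, which Flt1 encodes and which also exists as a soluble decoy. VEGF-A drives vessel growth mainly through VEGFR2, encoded by Kdr, while VEGF-C acts mainly on lymphatic vessels. Angiopoietin-1, classically a product of cells around vessels, activates the receptor TIE2, encoded by Tek, and steadies endothelium, whereas angiopoietin-2 acts in many settings as its antagonist. In textbook accounts all these receptors belong to endothelium, and mural and interstitial cells supply ligands.

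After filtering, 6087 cells of E10-P56 (median 7648 UMIs, unique molecular identifiers that count captured transcripts) and 8567 of the adult pulse (median 7344 UMIs) remained. Here and below, values in pairs give E10-P56 first and the adult pulse second. There were 469 and 411 pericytes, 197 and 70 progenitor-like mural cells (mural cells that also held Dlk1, Adra2a, Rgs16, Ifitm1 or Thy1), 175 and 23 smooth muscle cells, 4444 and 7310 fibroblasts, and 10 and 45 endothelial cells. Pericytes were shallower (medians 3306 and 3247 UMIs) than fibroblasts (8772 and 7707.5 UMIs). Pericyte markers summed to 22562 and 23054 CPM in the pericytes against 225 and 214 CPM in the fibroblasts, and fibroblast markers summed to 38512 and 55859 CPM in the fibroblasts against 1674 and 2504 CPM in the pericytes. The endothelial cells held endothelial markers at 7579 and 8305 CPM, but also fibroblast markers at 4428 and 4441 CPM. Smooth muscle cells held smooth muscle markers at 42581 and 31585 CPM and pericyte markers at 3018 and 5161 CPM. The study reports vascular smooth muscle cells for its E10-P56 experiment only, so the adult class of this name may hold other cells. These classes are ranges cut from a score: 32 of the 197 and 22 of the 70 progenitor-like mural cells, and 108 of the 463 and 268 of the 1122 Clu-type fibroblasts, lay within 0.05 of the limit. The libraries shared 15 cell barcodes, 11 of them among kept cells.

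A level is given in counts per 1000000 UMIs of the population (CPM), with an exact 95% Poisson interval in brackets that covers counting error only. Since capture at the 3′ end differs between genes, levels are compared between populations and not between genes.

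Vegfa, the main driver of vessel growth, was higher in fibroblasts than in pericytes in both libraries. Fibroblasts held 82.5% and 97.2% of its UMIs, against 77.5% and 89.1% of all UMIs. Its level in fibroblasts was 114 CPM (111 to 117) and 100.4 CPM (97.9 to 103). Pericytes stood far lower, at 13.1 CPM (8.41 to 19.5) and 18.1 CPM (11.9 to 26.6), so that fibroblasts exceeded them 8.70-fold (5.84 to 13.6) and 5.53-fold (3.77 to 8.48). The adult ratio was 9.32 among cells with at most 5% mitochondrial UMIs and 2.96 when clusters replaced the marker gates. Vegfa was also found in cells outside the compared classes. In E10-P56, 288 unassigned cells held 181 CPM (168 to 195), above the fibroblasts, and 60 cycling cells 106 CPM (93.1 to 120). Of the 239 UMIs of the cycling cells, 64.9% lay in 5 cells. The 156 unassigned cells of the adult pulse held 48.9 CPM (37.5 to 62.7), below the fibroblasts.

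Within the fibroblasts, Vegfa was highest in the Fgf10-type subset in both libraries, at 190 CPM (182 to 199) and 170 CPM (158 to 183). The Pi16-type subset, fibroblasts of the kind found widely across organs, held 110 CPM (104 to 115) and 134 CPM (129 to 140). The Col15a1-type subset held 98.5 and 76.3 CPM and the Clu-type subset 86.7 and 55.4 CPM. Fgf10-type exceeded Pi16-type cells 1.74-fold (1.62 to 1.86) and 1.27-fold (1.16 to 1.38), and Pi16-type exceeded Col15a1-type cells 1.11-fold (1.03 to 1.20) and 1.76-fold (1.66 to 1.87). The order of these subsets was therefore the same in both libraries, and the size of each step was not. Ccl2-type fibroblasts stood at 85.2 and 130 CPM, and Tnc-type fibroblasts were lower, at 39.6 CPM in E10-P56 and 3.76 CPM, a single UMI in 14 cells, in the adult pulse.

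Outside the fibroblasts, perineurial cells, which wrap nerve fascicles, reached 129 CPM (102 to 160) and 90.8 CPM (45.3 to 162), within the range of the fibroblast subsets. Smooth muscle cells held 43.6 CPM (33.6 to 55.7) of Vegfa in E10-P56 and 13.1 CPM in the adult pulse, where 23 cells gave 2 UMIs. Progenitor-like mural cells were as low as pericytes in E10-P56, at 12.4 CPM (8.06 to 18.4), and stood at 53.4 CPM (32.2 to 83.5) in the adult pulse, 4.29 times as high (2.23 to 8.12). That adult value rests on 19 UMIs, 52.6% of them in 5 cells. Tenocytes held 17.1 and 10.0 CPM.

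Vegfb, a VEGFR1 ligand linked to fatty acid handling in muscle, was higher in pericytes than in fibroblasts, though only slightly in the adult pulse. Pericytes held 37.7 CPM (29.4 to 47.8) and 43.3 CPM (33.2 to 55.5), against 19.2 CPM (17.9 to 20.4) and 32.1 CPM (30.6 to 33.5) in fibroblasts. The ratio of pericytes to fibroblasts was 1.97 (1.52 to 2.52) and 1.35 (1.03 to 1.74). The adult ratio was close to the median over all genes tested, which is given below. Progenitor-like mural cells held 27.9 CPM (21.1 to 36.2) and 42.2 CPM (23.6 to 69.6). Their adult value rests on 15 UMIs, and its interval includes the adult fibroblast level. Smooth muscle cells stood at 60.6 CPM (48.7 to 74.6) in E10-P56 and at 45.8 CPM, from 7 UMIs, in the adult pulse. The highest values were those of perineurial cells, at 64.4 CPM (46.2 to 87.4) and 90.8 CPM (45.3 to 162). Among the fibroblast subsets Vegfb varied little, between 16.4 and 22.0 CPM in E10-P56 and between 28.2 and 41.3 CPM in the adult pulse, and most neighbours in that order had overlapping intervals.

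Vegfc, the lymphatic growth factor, gave 0 UMIs in pericytes and in progenitor-like mural cells of both libraries. For pericytes, 0 UMIs allow up to 1.64 and 2.09 CPM (3 counts), and fibroblasts, at 9.02 CPM (8.20 to 9.91) and 9.24 CPM (8.49 to 10.0), were at least 5.50-fold and 4.41-fold higher. Clu-type fibroblasts, the subset marked by Clu, Meox1, Mgp and Comp, held 17.4 CPM (13.6 to 21.9) and 16.8 CPM (14.2 to 19.7), and tenocytes held 26.6 CPM (17.7 to 38.5) and 14.9 CPM (11.1 to 19.6). Pi16-type fibroblasts were low at 4.04 and 2.37 CPM, so that Col15a1-type cells exceeded them 2.64-fold (1.89 to 3.72) and 5.23-fold (3.83 to 7.30). In the adult pulse the endothelial cells held 54.3 CPM (23.5 to 107), from 8 UMIs in 4 of 45 cells, while the 10 endothelial cells of E10-P56 gave no UMI of it, which allows up to 119.7 CPM. Cells outside the compared classes held 34.2% of the E10-P56 Vegfc UMIs: 60 cycling cells stood at 40.8 CPM (32.9 to 50.1) and 288 unassigned cells at 40.5 CPM (34.4 to 47.3). Of the 92 UMIs of the cycling cells, 57.6% lay in 5 cells. The 156 unassigned cells of the adult pulse held 17.4 CPM (10.9 to 26.3).

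Pgf, which encodes placental growth factor and whose product binds VEGFR1 but not VEGFR2, was highest in smooth muscle cells and perineurial cells of E10-P56, at 66.1 CPM (53.6 to 80.6) and 56.6 CPM (39.6 to 78.3). In the adult pulse perineurial cells held 57.8 CPM (23.2 to 119) and smooth muscle cells 39.2 CPM, from 6 UMIs. Fibroblasts as a whole held 24.8 CPM (23.4 to 26.2) and 28.6 CPM (27.3 to 29.98), 1.15 times (1.07 to 1.24) as much in the adult pulse. Their subsets moved in opposite directions. Col15a1-type cells held 55.7 CPM (51.4 to 60.3) and 30.2 CPM (28.0 to 32.4), Pi16-type cells 25.7 CPM (23.1 to 28.6) and 38.6 CPM (35.9 to 41.5). The ratio of Pi16-type to Col15a1-type cells thus lay on opposite sides of 1, at 0.462 (0.404 to 0.529) and 1.28 (1.16 to 1.42). Fgf10-type cells, the highest of the subsets for Vegfa, held little Pgf, at 8.37 and 9.15 CPM. In mural cells Pgf depended on the library: pericytes held 16.4 CPM from 30 UMIs, of which 5 cells gave 66.7%, and 1.40 CPM from 2 UMIs, and progenitor-like mural cells held 27.9 CPM from 56 UMIs and 2.81 CPM from 1 UMI.

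**Figure D1:**
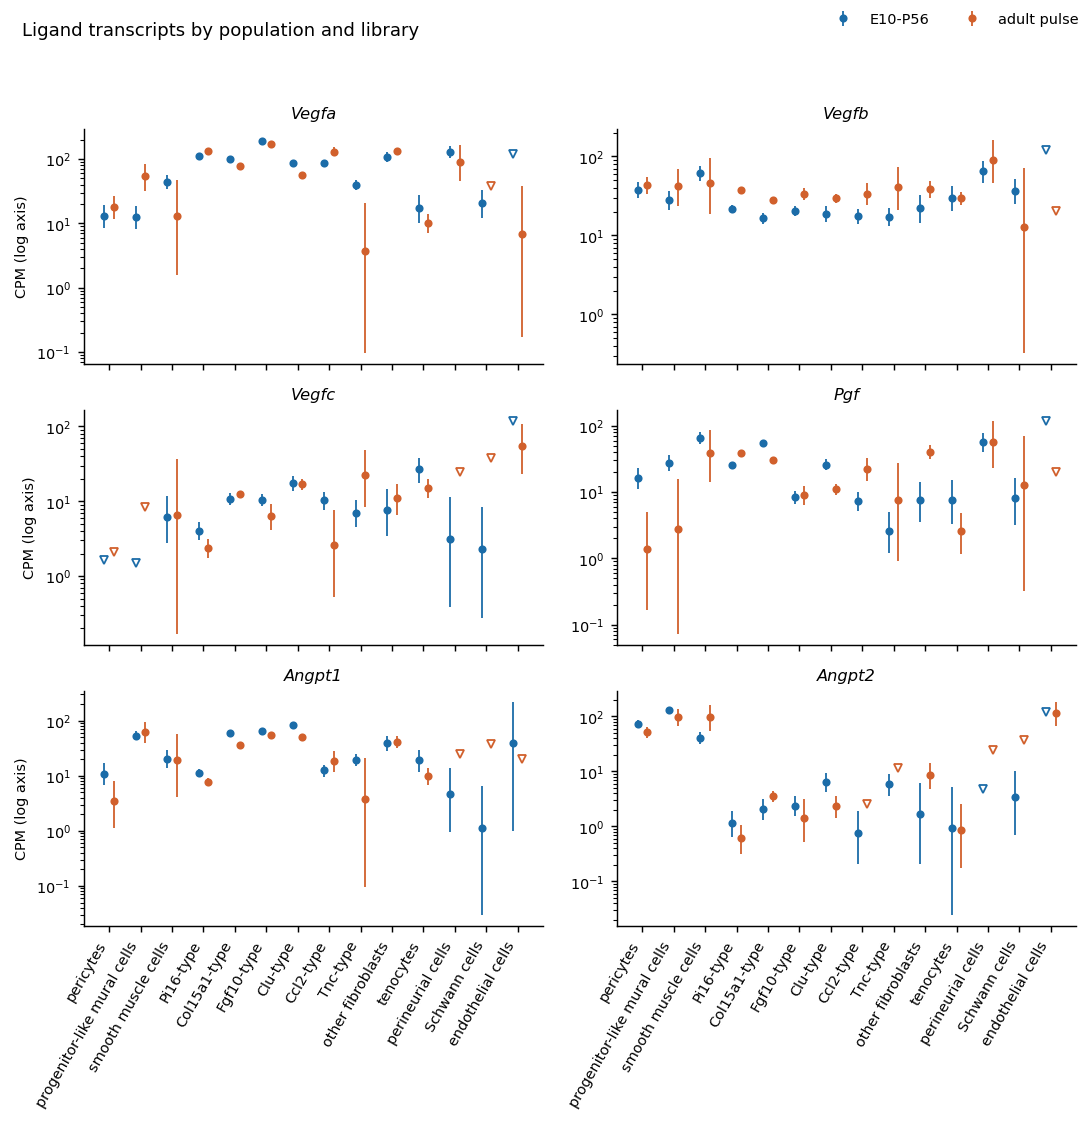
Levels of the 6 ligand genes in CPM (log axis) in 14 populations, with E10-P56 in blue and the adult pulse in orange. Points are CPM of UMIs summed over a population, bars are exact 95% Poisson intervals, and open triangles mark the limit that 0 UMIs allow (3 counts). Vegfa stands at 55.4 CPM or more in every fibroblast population but Tnc-type (39.6 and 3.76 CPM) and at 53.4 CPM or less in the mural populations. The adult intervals of Clu-type fibroblasts and progenitor-like mural cells overlap. Angpt2 stands at 40.9 CPM or more in the mural populations and at 8.68 CPM or less in every fibroblast population.

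Angpt1, the gene of the TIE2 agonist, was lower in Pi16-type cells than in Clu-, Fgf10- and Col15a1-type cells in both libraries. Pi16-type cells held 11.3 CPM (9.53 to 13.2) and 7.62 CPM (6.44 to 8.95). They were not alone in this: Ccl2-type cells held 12.5 CPM (9.71 to 15.9) and 18.9 CPM (11.9 to 28.6). Tnc-type cells held 19.5 CPM (15.1 to 24.8) and, from 1 UMI, 3.76 CPM. Clu-type cells held 82.6 CPM (74.2 to 91.8) and 50.0 CPM (45.5 to 54.8), Fgf10-type cells 64.8 CPM (59.9 to 69.9) and 54.4 CPM (47.5 to 62.0), and Col15a1-type cells 60.8 CPM (56.3 to 65.6) and 36.7 CPM (34.3 to 39.1). Over Pi16-type cells this made 7.33-fold (6.03 to 8.95) and 6.57-fold (5.45 to 7.96) for Clu-type, 5.74-fold (4.80 to 6.91) and 7.14-fold (5.78 to 8.85) for Fgf10-type and 5.39-fold (4.51 to 6.49) and 4.81-fold (4.04 to 5.77) for Col15a1-type cells. The ratio of Col15a1-type to Pi16-type cells was 3.05 and 3.299 when clusters replaced the gates.

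Pericytes, a textbook source of angiopoietin-1, held little Angpt1: 10.9 CPM (6.68 to 16.9) from 20 UMIs and 3.49 CPM (1.13 to 8.14) from 5 UMIs. Progenitor-like mural cells stood with the Angpt1-high fibroblasts, at 53.8 CPM (44.1 to 64.9) and 61.9 CPM (38.8 to 93.7). They exceeded pericytes 4.92-fold (3.03 to 8.37) and 17.7-fold (6.55 to 59.96), and fibroblasts exceeded pericytes 3.78-fold (2.44 to 6.19) and 8.67-fold (3.71 to 26.7). These sizes, which rest on few pericyte UMIs, moved with the settings. For progenitor-like mural cells over pericytes, the mean over cells gave 8.67 and 27.2, and clusters gave 7.67 in E10-P56. The same adult ratio was 4.74 with stricter gates and 45.9 with at most 5% mitochondrial UMIs. For fibroblasts over pericytes, the mean over cells gave 7.18 and 14.9 and clusters gave 6.21 and 1.44, while the adult ratio was 2.83 with stricter gates and 17.1 with at most 5% mitochondrial UMIs.

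Angpt2, the context-dependent TIE2 antagonist best known from endothelium, stood far higher in mural cells than in fibroblasts in both libraries. Fibroblasts, with 77.5% and 89.1% of all UMIs, still held 18.7% and 46.5% of the Angpt2 UMIs. Progenitor-like mural cells held 129 CPM (114 to 146) and 95.6 CPM (66.2 to 134), and pericytes held 72.2 CPM (60.4 to 85.6) and 51.6 CPM (40.5 to 64.8). Fibroblasts held 2.37 CPM (1.96 to 2.85) and 2.32 CPM (1.95 to 2.74). Pericytes exceeded fibroblasts 30.4-fold (23.5 to 39.4) and 22.2-fold (16.6 to 29.7), and progenitor-like mural cells did so 54.5-fold (43.6 to 68.5) and 41.2-fold (27.5 to 60.3). Progenitor-like mural cells also exceeded pericytes by a like factor in both libraries, 1.79-fold (1.45 to 2.23) and 1.85-fold (1.20 to 2.82). Smooth muscle cells held 40.9 CPM (31.2 to 52.6) in E10-P56, below pericytes, and 98.1 CPM (54.9 to 162) from 15 UMIs in the adult pulse, above them. The adult endothelial cells held 115 CPM (67.2 to 185) from 17 UMIs, at a level whose interval overlapped that of the adult mural populations other than pericytes.

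The share of cells with an Angpt2 UMI, after thinning every cell to 1500 UMIs, was 9.17% (6.71 to 12.2, exact 95% binomial interval) and 5.60% (3.58 to 8.28) of pericytes and 16.2% (11.4 to 22.2) and 8.57% (3.21 to 17.7) of progenitor-like mural cells. Without thinning the shares were 19.2% and 13.6% of pericytes and 58.9% and 40.0% of progenitor-like cells. Tenocytes, with median depths of 4667 and 6275 UMIs, gave 0% and 0.206% when thinned and 0.513% and 0.619% when not, which is given as the share in a cell type taken to lack the gene. Background from free RNA was not measured.

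Within each population, the angiopoietin UMIs were divided differently. Angpt1 made up 94.6% (93.5 to 95.5) and 92.9% (91.6 to 94.0) of the angiopoietin UMIs in fibroblasts, 29.3% (24.7 to 34.3) and 39.3% (26.5 to 53.2) in progenitor-like mural cells and 13.2% (8.23 to 19.6) and 6.33% (2.09 to 14.2) in pericytes. The share is compared between populations only. Angpt1 overlaps the antisense gene Gm17473 and Angpt2 overlaps Mcph1, each on the opposite strand; the 10x counts use strand. On GRCm38 Angpt1 lies at chr15:42424723-42676977 and Angpt2 at chr8:18690263-18741562, both on the minus strand.

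Among the receptor genes, the endothelial cells of both libraries carried Flt1 and Kdr at levels far above any other population, and all 3 receptor genes are shown here by the window around their start sites, because the results turn on where these receptors were read. Each sequence runs 5′ to 3′ on the gene's strand over 300 bases around the start (RefSeq, GRCm38.p6). Capitals mark matches on either strand to letters for ETS factors (CGGAAG or else AGGAAG), for GATA factors (AGATAA or else TGATAA), for the GC box (GGGCGG) or for the TATA box (TATAAA).
Flt1, chr5:147725962-147726261, minus strand: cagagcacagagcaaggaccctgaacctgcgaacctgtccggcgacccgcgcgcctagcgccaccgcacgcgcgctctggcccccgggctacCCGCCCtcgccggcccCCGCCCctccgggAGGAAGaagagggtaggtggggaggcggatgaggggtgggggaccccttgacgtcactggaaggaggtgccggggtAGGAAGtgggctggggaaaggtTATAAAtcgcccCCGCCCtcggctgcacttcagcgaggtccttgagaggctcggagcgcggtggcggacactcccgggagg
Kdr, chr5:75978406-75978705, minus strand: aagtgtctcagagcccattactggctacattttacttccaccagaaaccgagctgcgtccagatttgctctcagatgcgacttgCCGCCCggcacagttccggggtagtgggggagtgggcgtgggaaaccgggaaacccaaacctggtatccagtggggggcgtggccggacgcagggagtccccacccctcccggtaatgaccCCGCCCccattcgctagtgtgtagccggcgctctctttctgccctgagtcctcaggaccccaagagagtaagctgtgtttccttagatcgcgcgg
Tek, chr4:94739039-94739338, plus strand: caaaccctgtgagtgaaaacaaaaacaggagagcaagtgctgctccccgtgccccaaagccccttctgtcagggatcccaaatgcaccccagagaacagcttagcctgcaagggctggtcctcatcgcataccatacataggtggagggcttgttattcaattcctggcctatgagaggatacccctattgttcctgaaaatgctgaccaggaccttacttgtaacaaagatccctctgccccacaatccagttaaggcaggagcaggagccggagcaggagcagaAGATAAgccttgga
The Flt1 window held 2 ETS matches, at −129 and −53 from the start, a TATA match at −31 and 3 GC boxes. The Kdr window held 2 GC boxes, and the Tek window held a GATA match at +36. Such letters are common: of 32851 promoter windows of this length, 46.5% held an ETS match, 18.6% a GATA match, 35.7% a GC box and 13.6% a TATA match. Promoter windows were at hand for 7 of the 9 genes, all but Angpt1 and Angpt2.

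Flt1 reached 2912 CPM (2283 to 3661) and 1609 CPM (1411 to 1828) in endothelial cells, from 73 and 237 UMIs. Flt1 UMIs were also read in mural cells. Progenitor-like mural cells held 118 CPM (103 to 134) and 90.0 CPM (61.6 to 127), and pericytes held 97.4 CPM (83.6 to 113) and 26.5 CPM (18.8 to 36.4). Fibroblasts held 1.78 CPM (1.42 to 2.19) and 1.25 CPM (0.986 to 1.57), so that pericytes exceeded them 54.9-fold (42.2 to 71.8) and 21.2-fold (14.0 to 31.7) and progenitor-like mural cells 66.5-fold (51.7 to 86.1) and 71.9-fold (46.0 to 110.1). After thinning, 10.7% (8.02 to 13.8) and 3.41% (1.87 to 5.65) of pericytes had a Flt1 UMI, against 18.3% and 5.35% without thinning. In tenocytes none did when thinned, which allows up to 1.54% and 0.619% of cells with a UMI and sets no limit on cells that express the gene, and 0.513% and 0.412% did without thinning. The adult ratio of pericytes to fibroblasts was 34.0 without the cells of highest doublet score and 45.9 with clusters. Smooth muscle cells held 19.1 CPM of Flt1 in E10-P56, with 82.1% of the 28 UMIs in 5 cells, and 39.2 CPM from 6 UMIs in the adult pulse.

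Kdr, the main signalling receptor for VEGF-A, stood at 1795 CPM (1309 to 2402) and 1317 CPM (1139 to 1516) in endothelial cells. Pericytes held 30.6 CPM (23.1 to 39.8) and 4.19 CPM (1.54 to 9.11), and fibroblasts 1.65 CPM (1.31 to 2.06) and 1.37 CPM (1.09 to 1.69). Progenitor-like mural cells gave 0 UMIs in E10-P56, which allows up to 1.49 CPM, and 2 UMIs in the adult pulse. The E10-P56 value in pericytes came from few cells: 75.0% of its 56 UMIs lay in 5 cells. Pericytes over fibroblasts came to 18.6 (12.9 to 26.4) and 3.06 (1.09 to 6.95) for Kdr, and to 5.97 and 7.20 with clusters.

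The endothelial markers of the E10-P56 pericytes summed to 103 CPM with none of the 9 markers at 0, against 29.3 CPM with 2 at 0 in the adult pericytes. The same sum was 336 CPM in E10-P56 Schwann cells, with 4 of the 9 markers at 0. In E10-P56 perineurial cells it was 295 CPM, with 3 at 0. Flt1 stood in these cells at 2.30 and 1.57 CPM and Kdr at 8.04 and 4.71 CPM. The part of endothelial RNA in the receptor values of pericytes was not tested. In E10-P56, 48 of the 469 pericytes had a UMI of an endothelial marker. These 48 held 51 of the 56 Kdr UMIs, at 181 CPM (135 to 238), while the other 421 held 5 UMIs at 3.23 CPM (1.05 to 7.55). Flt1 stood at 298 CPM (237 to 369) in the 48 cells and at 60.8 CPM (49.1 to 74.4) in the 421. In the adult pulse the order was not the same: 40 pericytes with such a UMI held 2 Flt1 UMIs and 0 Kdr UMIs, and 371 without held Flt1 at 28.4 CPM (19.9 to 39.3) and Kdr at 4.73 CPM (1.73 to 10.3). Without such cells in any population, pericytes over fibroblasts fell from 18.6 to 1.76 for Kdr and from 54.9 to 32.5 for Flt1 in E10-P56, and the adult ratio for Flt1 was 32.2.

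The proportion of Flt1 to Kdr UMIs differed between these cells. In the 10 endothelial cells of E10-P56 there were 73 Flt1 and 45 Kdr UMIs. The 48 pericytes with an endothelial marker UMI held 84 and 51, the 421 others 94 and 5, and the progenitor-like mural cells 237 and 0. In the adult pulse endothelial cells held 237 and 194 and pericytes 38 and 6. The 40 adult pericytes with such a UMI held 2 and 0. The 48 and the 40 cells were set apart by endothelial markers, and the source of their receptor UMIs was not tested. Progenitor-like mural cells of E10-P56 held Flt1 at 127 CPM (106 to 151) where no endothelial marker UMI was present and 109 CPM (89.5 to 131) where one was. Angpt2 in E10-P56 pericytes was 72.5 CPM (59.7 to 87.2) without and 70.9 CPM (43.3 to 109) with an endothelial marker UMI.

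**Figure D2:**
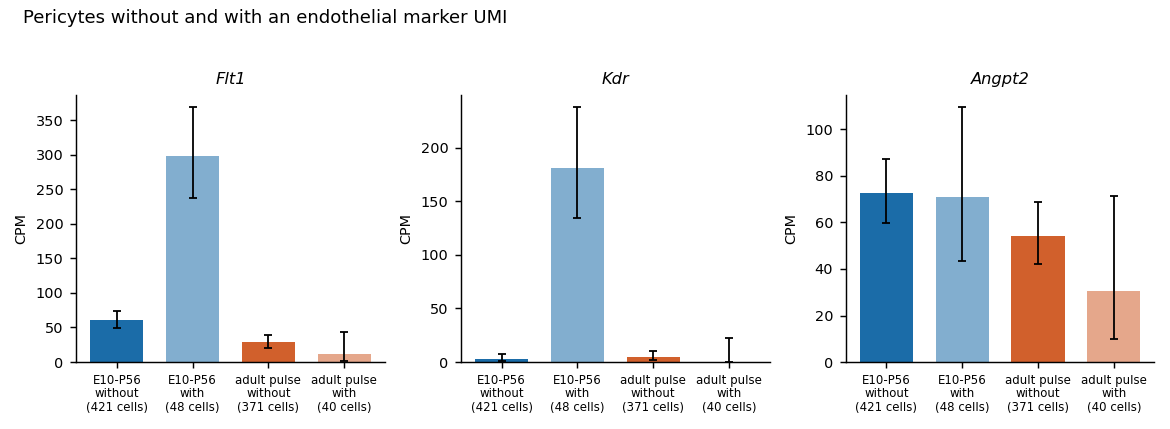
CPM of Flt1, Kdr and Angpt2 in pericytes without (dark bars) and with (light bars) at least 1 UMI of an endothelial marker, in E10-P56 (blue) and the adult pulse (orange), with the number of cells under each bar. Whiskers are exact 95% Poisson intervals. Kdr in E10-P56 stands at 181 CPM in the 48 cells with such a UMI and at 3.23 CPM in the 421 without, Flt1 at 298 and 60.8 CPM, and Angpt2 at 70.9 and 72.5 CPM.

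Tek, which encodes the angiopoietin receptor TIE2, had a different distribution from Flt1 and Kdr: most of its UMIs, 97.6% and 98.3%, lay in fibroblasts. These cells held 77.5% and 89.1% of all UMIs. Endothelial cells held Tek at 160 CPM (43.5 to 409) from 4 UMIs and 251 CPM (177 to 346) from 37 UMIs. Pi16-type fibroblasts stood close to them, at 131 CPM (125 to 137) from 1715 UMIs and 211 CPM (205 to 218) from 4109 UMIs, and the intervals overlapped in both libraries. Col15a1-type cells held 90.3 CPM (84.8 to 96.1) and 106 CPM (102 to 110), Fgf10-type cells 47.8 CPM (43.7 to 52.3) and 69.6 CPM (61.8 to 78.1), and Clu-type cells 33.1 CPM (27.8 to 39.1) and 42.3 CPM (38.2 to 46.8). This order, from Pi16-type down to Clu-type, was the same in both libraries with no overlap of neighbouring intervals among the 4 subsets. Pi16-type exceeded Col15a1-type cells 1.45-fold (1.34 to 1.57) and 1.99-fold (1.90 to 2.09), the reverse of their order for Angpt1.

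Mural cells held little Tek. Pericytes stood at 6.56 CPM (3.39 to 11.5) and 4.19 CPM (1.54 to 9.11), progenitor-like mural cells at 2.49 CPM from 5 UMIs and at 0 UMIs, which allows up to 8.44 CPM. Fibroblasts as a whole, at 73.2 CPM (70.8 to 75.6) and 126 CPM (123 to 128), exceeded pericytes 11.1-fold (6.37 to 21.6) and 30.01-fold (13.8 to 81.8), and the adult ratio was 6.23 when clusters replaced the gates. After thinning, 11.5% (10.6 to 12.5) and 16.03% (15.2 to 16.9) of fibroblasts had a Tek UMI, and 41.2% and 50.8% did without thinning. The thinned shares were 0% and 0.412% in tenocytes, and 20% (2.52 to 55.6) and 40.0% (25.7 to 55.7) in endothelial cells, whose median depths were 2546.5 and 2853 UMIs. Fibroblasts without an endothelial marker UMI held Tek at 81.5 CPM (78.5 to 84.6) and 125 CPM (122 to 128). Those with one held it at 53.1 CPM (49.4 to 57.0) and 127 CPM (122 to 133). A deeper cell has more chances to hold such a UMI, and the subsets differ in depth. Ccl2- and Tnc-type fibroblasts of E10-P56, with medians of 15534 and 24370.5 UMIs, held Tek at 23.6 and 14.0 CPM. In the adult pulse Ccl2-type cells, with a median of 9856 UMIs, held 107 CPM (88.7 to 127), and Tnc-type cells held 22.5 CPM from 6 UMIs. The part of depth, subset and endothelial RNA in these values was not tested. Fibroblasts themselves held Flt1 and Kdr at 1.78 CPM or less. Tek lies at chr4:94739289-94874976 on GRCm38, and no annotated gene overlaps it.

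**Figure D3:**
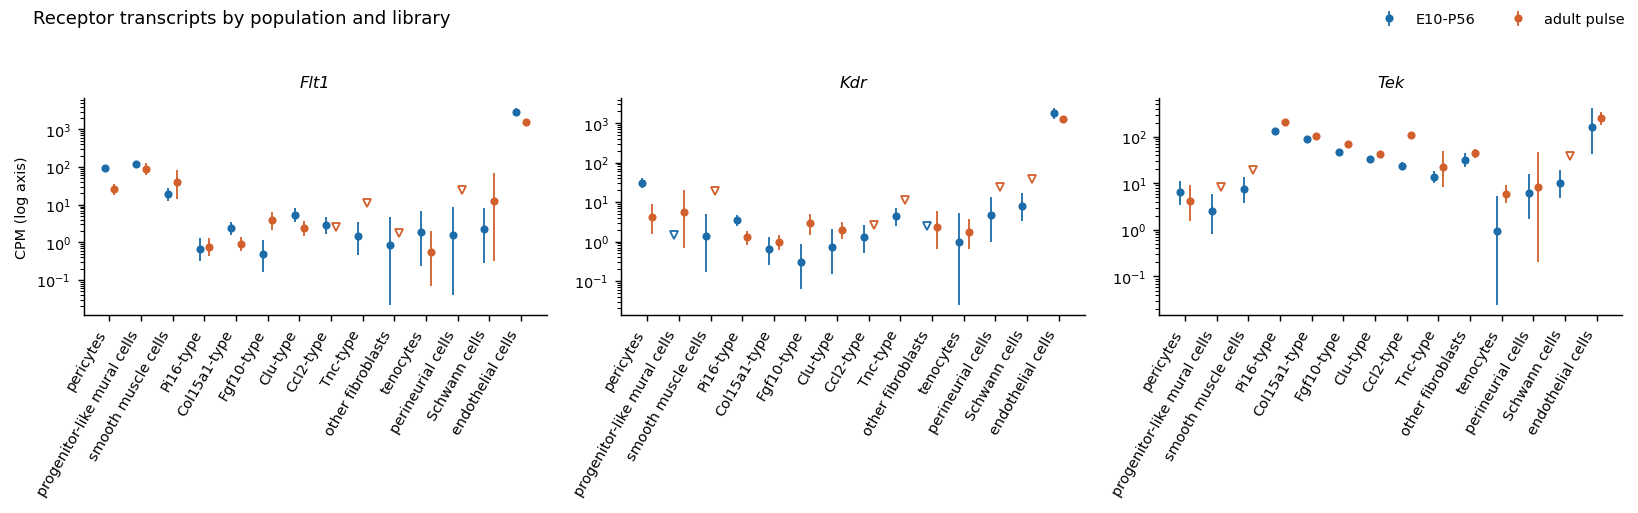
Levels of the receptor genes Flt1, Kdr and Tek in CPM (log axis) in 14 populations, with E10-P56 in blue and the adult pulse in orange. Points, bars (exact 95% Poisson intervals) and open triangles (limit for 0 UMIs) are as in the plot of ligand levels. Flt1 and Kdr stand at 1317 CPM or more in endothelial cells and at 5.48 CPM or less in every fibroblast population, while Tek in Pi16-type fibroblasts (131 and 211 CPM) lies beside endothelial cells (160 and 251 CPM).

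Counted together, 3 of the 9 genes (Flt1, Kdr and Angpt2) were at least 2-fold higher in pericytes than in fibroblasts in each library, where 20.3% and 18.1% of all genes with 20 or more UMIs were. Kdr fell to 1.76 in E10-P56 without cells with an endothelial marker UMI, and so out of this count. Its adult call rested on 6 pericyte UMIs. At least 2-fold lower were 4 genes in E10-P56 (Vegfa, Vegfc, Angpt1 and Tek) and the same with Pgf in the adult pulse, where 13.7% and 12.8% of all genes were. The median ratio of pericytes to fibroblasts over the 9 genes was 0.662 in E10-P56 and at most 0.227 in the adult pulse, where the middle gene was Vegfc at the limit its 0 UMIs allow, and 1.28 and 1.31 over all genes tested (13684 and 14059). Progenitor-like mural cells exceeded fibroblasts at least 2-fold in Flt1 and Angpt2 in both libraries, with Kdr and Angpt1 in the adult pulse (2 and 4 of 9, against 12.3% and 16.9% of all genes, with the adult Kdr ratio of 4.12 (0.490 to 15.3) resting on 2 UMIs), and were at least 2-fold lower in Tek in both, with Vegfa and Vegfc in E10-P56 and Pgf in the adult pulse (3 and 2 of 9, against 13.4% and 9.47%). Smooth muscle cells exceeded fibroblasts at least 2-fold in Flt1 and Angpt2 in both libraries, with Vegfb and Pgf in E10-P56 (4 and 2 of 9, against 14.4% and 15.9%), and were at least 2-fold lower in Vegfa and Tek in both, with Angpt1 in E10-P56 (3 and 2 of 9, against 17.8% and 11.3%). Between Pi16-type and Col15a1-type fibroblasts, Vegfc and Angpt1 were at least 2-fold lower in Pi16-type cells in both libraries, with Pgf and Flt1 in E10-P56 and Angpt2 in the adult pulse, against 8.61% and 9.93% of all genes. Kdr alone was at least 2-fold higher in Pi16-type cells, in E10-P56 only, where 4.63% of all genes were. In the adult pulse 0 members were, and 5.59% of all genes.

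The other genes of the pathway also fell on both sides. Of 18 pathway genes listed beside the members, 16 and 17 had enough UMIs to be compared, and 6 were at least 2-fold higher in pericytes than in fibroblasts in each library, among them the VEGF co-receptors Nrp1 and Nrp2 and the hypoxia-inducible factor Epas1. Of all genes, 20.3% and 18.1% were. Ptprb, another pathway gene, was 43.6-fold higher in pericytes than in fibroblasts in E10-P56, from 28 pericyte UMIs. Adult pericytes gave 2 UMIs of it. The part of endothelial RNA in these counts was not tested. Nrp1 stood at 474 and 500 CPM in pericytes and 165 and 187 CPM in fibroblasts, and Nrp2 at 107 and 70.5 CPM against 11.6 and 11.9 CPM. Epas1, which encodes HIF-2α, held 454 and 465 CPM in pericytes, 496 and 549 CPM in smooth muscle cells and 13.4 and 12.3 CPM in fibroblasts. At least 2-fold lower were 6 and 5, Figf, Angptl1 and Svep1 among them in both libraries, against 13.7% and 12.8% of all genes. Figf, the gene of VEGF-D, held 103 and 59.5 CPM in fibroblasts against 7.11 and 6.28 CPM in pericytes. Angptl1, an angiopoietin-like gene, held 222 and 400.2 CPM against 8.75 and 17.4 CPM, and Svep1, a matrix protein tied to lymphatic vessels, held 213 and 184 CPM against 6.56 and 12.6 CPM. The median ratio of pericytes to fibroblasts over the pathway genes was 1.15 and 1.46, to be read beside the medians over all genes given above.

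Of 10 hypoxia-responsive genes, 2 were at least 2-fold higher in pericytes than in fibroblasts in each library (Ankrd37 in both, with Pdk1 in E10-P56 and Mif in the adult pulse) and 1 was lower, Adm, the gene of the vasoactive peptide adrenomedullin. Of all genes, 20.3% and 18.1% were higher and 13.7% and 12.8% lower, so these counts lie near the shares over all genes. Adm stood at 140 and 117 CPM in fibroblasts against 12.6 and 9.07 CPM in pericytes. The median ratio was 1.05 and 1.53, to be read beside the medians over all genes given above. Of 11 genes known to respond to tissue dissociation, 0 were at least 2-fold higher in pericytes and 8 and 6 were lower, against the same shares of all genes. Their medians were 0.323 and 0.399. Atf3 held 44.3 and 48.8 CPM in pericytes, 137 and 216 CPM in fibroblasts and 366 and 1171 CPM in smooth muscle cells. Ier2 held 58.5 and 109 CPM in pericytes against 328 and 438 CPM in fibroblasts, and Ier3 held 24.1 and 9.77 CPM against 117 and 97.6 CPM. Like Vegfa, these 3 genes were lower in pericytes than in fibroblasts. In smooth muscle cells Ier2 (138 and 170.1 CPM) and Ier3 (70.8 and 65.4 CPM) were also below fibroblasts, as Vegfa was, and Atf3 was above them. Their part in the level of Vegfa was not tested.

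Between the libraries the members moved in different directions in different populations. In fibroblasts as a whole, Tek was 1.72 times (1.65 to 1.79) and Vegfb 1.67 times (1.55 to 1.81) as high in the adult pulse as in E10-P56, Angpt1 stood at 0.732 (0.687 to 0.780) and Vegfa at 0.879 (0.847 to 0.912). No member passed 2-fold in either direction there, against 7.71% of all genes higher and 6.74% lower. Vegfb was higher in the adult pulse in each of the Pi16-, Col15a1-, Fgf10- and Clu-type subsets, by 1.58 to 1.72 times, and Tek by 1.18 to 1.62 times. Angpt1 was lower in each of the 4, at 0.603 to 0.840. Ccl2-type fibroblasts, of which the adult pulse held 107, moved further, with Tek at 4.53 (3.504 to 5.85) and Vegfa at 1.52 (1.26 to 1.83), and Angpt1 there stood at 1.51 (0.888 to 2.48), an interval that includes 1. Vegfa was higher in Pi16-type cells, at 1.23 (1.15 to 1.31), and lower in the other 3 of these subsets.

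In pericytes, 4 of the 7 members with 20 or more UMIs (Pgf, Flt1, Kdr and Angpt1) were at least 2-fold lower in the adult pulse, where 4.30% of all genes were, and 0 were at least 2-fold higher, where 2.90% were. The count of 4 depended on which cells were taken. Without cells with an endothelial marker UMI it lost Kdr. With clusters, where no adult cluster was named progenitor-like or smooth muscle, all 4 fell short of 2-fold lower. Flt1 stood at 0.272 (0.187 to 0.388) of its E10-P56 level, Kdr at 0.137 (0.0481 to 0.317), Pgf at 0.0850 (0.00985 to 0.335) and Angpt1 at 0.319 (0.0935 to 0.875). Without cells with an endothelial marker UMI the ratio was 0.466 for Flt1 and, in the opposite direction, 1.46 (0.371 to 6.05) for Kdr. With clusters it was 0.628 for Flt1 and 0.788 for Kdr, and it turned to 4.35 (0.99995 to 39.5) for Pgf and 3.11 (1.56 to 6.88) for Angpt1. For Angpt1 stricter gates gave 0.888. Angpt2 stood at 0.715 (0.530 to 0.958), and at 1.15 (0.873 to 1.53) with clusters. In progenitor-like mural cells Flt1 was 0.763 (0.510 to 1.11) and Angpt2 0.739 (0.501 to 1.06), both with intervals that include 1. In progenitor-like mural cells Vegfa was at least 2-fold higher and Pgf at least 2-fold lower among the 6 members with 20 or more UMIs, against 7.65% and 9.79% of all genes. Markers of muscle fibres moved with the library in fibroblasts, 14.97 against 70.2 CPM with none of 7 at 0, as did endothelial markers, 32.1 against 48.5 CPM with 1 and 0 of 9 at 0, and their part in these ratios was not tested.

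**Figure D4:**
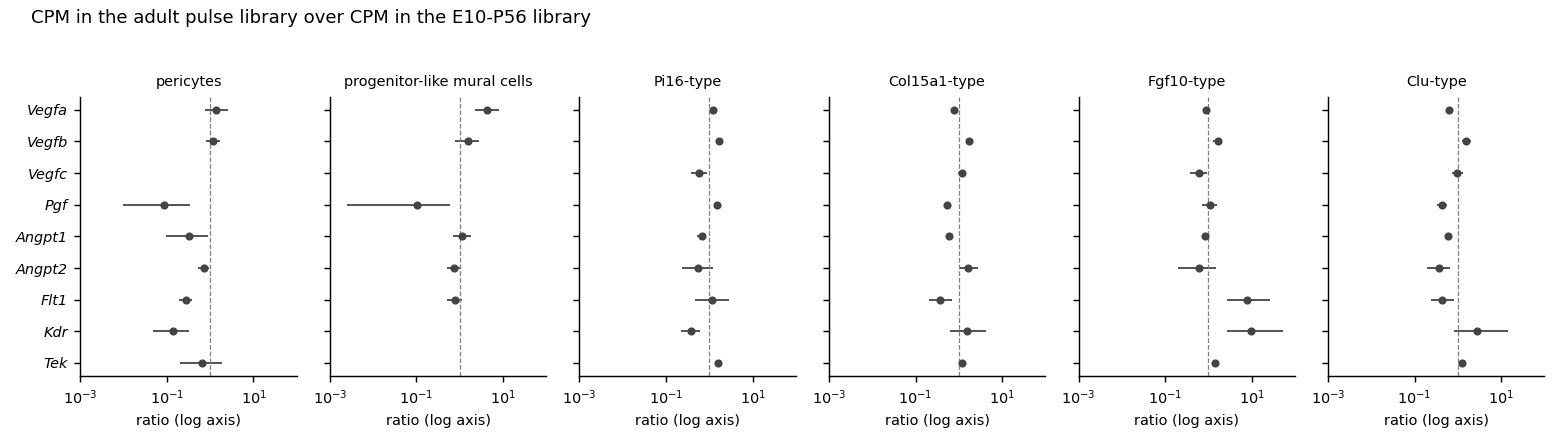
Ratio of CPM in the adult pulse to CPM in E10-P56 (log axis) for the 9 genes in 6 populations, with exact 95% intervals of a ratio of Poisson counts; a dashed line marks 1, and genes with too few UMIs for a ratio have no point. Tek and Vegfb lie to the right of 1 and Angpt1 to the left in each of the 4 fibroblast subsets, while Flt1 (0.272) and Kdr (0.137) lie to the left in pericytes, where Kdr turned to 1.46 without cells with an endothelial marker UMI.

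Members were also read together in single cells. In E10-P56 progenitor-like mural cells, 5 of the 25 cells with a Flt1 UMI after thinning also had an Angpt2 UMI (20%), against 15.7% of cells without, and in the adult pulse 0 of 5 did, against 9.23% of cells without. In adult fibroblasts, 19.2% of cells with a Vegfa UMI had a Tek UMI after thinning and 15.5% of the others did. Angpt1-positive adult fibroblasts had one in 13.4% against 16.1%. In E10-P56 fibroblasts the thinned shares for Vegfa were nearly equal, at 11.98% with and 11.45% without a Vegfa UMI. For Angpt1 they were 7.57% and 11.8% there. The part of the fibroblast subsets in these shares was not tested. Without thinning the adult shares were 57.8% and 45.8% for Vegfa and 42.1% and 52.6% for Angpt1, and without thinning a deeper cell has more chances to hold both.

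The genes whose levels ran most closely with a member were named from 11589 genes, by Pearson's r of log2(CPM + 5) over the 28 profiles of 14 populations in each of the libraries. The profiles share libraries and differ in depth, so r is a description. Kdr ran with Gpihbp1 (0.984), Mmrn2, Cd300lg and Kank3, and Flt1 with Sh2d3c (0.971), Cd93, Abi3, Adgrf5 and Pde2a, while Flt1 and Kdr themselves had an r of 0.846. Angpt2 ran with Apold1 (0.932), Gja4, Rasa4 and Neurl1b, and its r with Flt1 was 0.597. Tek ran with Slc43a3 (0.924), Edn1, Ly6c1, Trim30d and Ramp2. For the ligands of fibroblasts the closest genes included Amy1 (0.887) for Vegfa, Cit (0.853) for Vegfc, Ramp1 (0.761) for Pgf and Gm21917 (0.762) and Adam19 (0.749) for Angpt1, and for Vegfb Acat1 (0.883).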

How the data were processed

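Single-cell RNA-seq of sorted tdTomato+ cells was used, with 1 library each for E10-P56 and the adult pulse. The deposited values were unnormalized UMI counts, which the authors made with Cell Ranger (version 5.0.0 for E10-P56, version 3.0.2 for the adult pulse, per the file headers) on mm10, modified according to the methods. Labels name 10x 3′ chemistry v2 or v3, and the methods v3. The matrices held, E10-P56 first, 67460919 and 69153173 UMIs in 8236 and 9195 barcodes.

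Barcodes with at least 1500 UMIs (the study's limit) and at most 10% mitochondrial UMIs were kept, and no doublets were removed. Each cell was scored as the mean of scaled marker levels (0 to 1), and a class needed a score of 0.3, a lead of 0.1 over other classes and 3 markers with a UMI. Fibroblast subsets and progenitor-like mural cells, which also had to hold mural markers, needed 0.25 and 2 markers. These limits were set after the counts had been seen, without the member genes, and cells in no class (288 and 156) stayed out. Cell classes rebuilt in this way can differ from the study's. The members, the marker lists and the gene lists were chosen with earlier results of these data known.

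UMIs were summed per class and library and given as CPM with exact 95% Poisson intervals. Ratios carry exact intervals for a ratio of Poisson counts, shares exact Clopper-Pearson intervals, and 0 counts a limit of 3 counts. All cover counting error only. Shares were taken after thinning cells to 1500 UMIs. No p-value was computed, because cells are not replicates. Named genes were the 9 members, list genes that differed at least 4-fold between the highest and lowest of pericytes, progenitor-like mural cells, smooth muscle cells and fibroblasts in both libraries with at least 20 UMIs in the highest, and genes from the 5 closest to each member in Pearson's r. Nrp1, Nrp2, Ptprb, Ankrd37, Pdk1 and Mif were named after their values were seen. Of these closest genes, 1 is not reported here. Python 3.11.15 was used with numpy 2.4.6, scipy 1.17.1, pandas 2.3.3, and scanpy 1.11.5, leidenalg 0.10.2 and python-igraph 0.11.9 for clusters and doublet scores. The steps were tested on simulated data.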

Additional observations from a re-analysis of the deposited data

Results flagged for a closer look

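Contrasts between populations that pointed opposite ways in the 2 libraries were picked out, where the counting intervals of both lay on their own side of 1. In each case the difference between the libraries was not tested, since there was 1 library per labelling time.

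Angpt2 in pericytes over smooth muscle cells was 1.77 (1.29 to 2.44) for E10-P56 but 0.526 (0.299 to 0.987) for the adult pulse, where the smooth muscle cells numbered 23 and gave 15 UMIs. The study reports vascular smooth muscle cells for E10-P56 only, and the adult class held more pericyte marker RNA than that of E10-P56. Pgf in Pi16-type over Col15a1-type fibroblasts was 0.462 (0.404 to 0.529) for E10-P56, from 338 and 612 UMIs, but 1.28 (1.16 to 1.42) for the adult pulse, from 751 and 750 UMIs. Kdr in Fgf10-type over Pi16-type fibroblasts was 0.0861 (0.0171 to 0.268) for E10-P56, from 3 and 45 UMIs, but 2.25 (1.03 to 4.64) for the adult pulse, from 12 UMIs in 3 cells and 25 UMIs in 21 cells.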

How the results depend on the processing

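No paired analysis was possible because each labelling time had 1 library. Over the alternatives, 189 of 224 values of the main ratios moved by less than their counting interval, 31 moved beyond it and 4, all between libraries in pericytes, changed direction; of the other values, levels and shares among them, 503 moved by less and 87 by more. The main ratios kept within their intervals with a UMI minimum of 3000, with no mitochondrial limit and with CPM taken without mitochondrial and ribosomal protein genes. Moved values follow, and the cause was not tested.

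At most 5% mitochondrial UMIs took Vegfa in fibroblasts over pericytes to 9.32 in the adult pulse and left Pgf in pericytes between libraries with no ratio. With the top 5% of doublet scores left out, Flt1 in adult pericytes over fibroblasts came to 34.0. Stricter gates gave Tek in Pi16-type over Col15a1-type cells 1.73 and 2.25, adult Angpt1 2.83 in fibroblasts and 4.74 in progenitor-like mural cells over pericytes, and Angpt1 in pericytes 0.888 between libraries. Clusters in place of gates gave Angpt1 6.21 and 1.44 in fibroblasts over pericytes and 3.05 and 3.299 in Col15a1-type over Pi16-type cells. They gave pericytes over fibroblasts 40.6 and 45.9 for Flt1 and 5.97 and 7.20 for Kdr, Tek in Pi16-type over Col15a1-type cells 1.21 and 2.13, adult Vegfa 2.96 and Tek 6.23 in fibroblasts over pericytes, and between libraries in pericytes 0.628 for Flt1 and 0.788 for Kdr, with the direction changed to 4.35 for Pgf, 3.11 for Angpt1 and 1.15 for Angpt2. No adult cluster was named progenitor-like or smooth muscle, so those ratios have no value there. Adult clusters named pericytes held 386 cells and 172 cells, against 411 adult pericytes by the gates, so their ratios need not concern the same cells. Without cells holding an endothelial marker UMI, pericytes over fibroblasts came to 32.5 and 32.2 for Flt1 and to 1.76 for Kdr in E10-P56, and the ratios between libraries to 0.466 for Flt1 and, with the direction changed, 1.46 for Kdr in pericytes, and to 1.53 for Tek and 0.787 for Angpt1 in fibroblasts. The mean over cells gave, in E10-P56, Angpt1 7.18 in fibroblasts and 8.67 in progenitor-like mural cells over pericytes and Angpt2 23.3 in pericytes over fibroblasts, and 2.09 for adult Tek in Pi16-type over Col15a1-type cells. Of the other pathway genes, 6 higher in pericytes in each library became 3 and 3 with a fold of 4, and also with at least 100 UMIs, and 6 and 5 lower became 4 and 3 with a fold of 4.

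Few cells limit the adult smooth muscle values (23 cells) and the endothelial values (10 and 45 cells), of which Flt1 and Kdr rest on the most UMIs. Few UMIs limit the Angpt1 and Tek values of pericytes and their adult Kdr value, and their E10-P56 Kdr value came mostly from few cells. No interval covers the spread between animals.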
